A study of Mus musculus with 6 samples.

Results

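Transcripts of 32 genes of the Ras and MAP kinase cascades were measured in cortex from FAD5x mice, which model Alzheimer's disease, and from Control mice, wild type on the B6 background. The 32 genes were taken by their mouse gene symbols, all 32 were found among the 47728 genes of the deposited count table, and all 32 passed the filter on low counts. Flash-frozen cortex gave 3 libraries from FAD5x mice and 3 from Control mice, made from total RNA. Lines of the FAD5x type carry human transgenes with familial disease mutations under a neuron-directed Thy1 promoter, and the human transgenes are not among the mouse genes described here. The labels state neither age nor sex, and they do not state whether each library came from its own animal, so the spread behind each p-value is that between libraries and may be technical. In whole cortex, fewer cells of a type and less RNA per cell cannot be told apart.

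Ras proteins are membrane-bound switches that exchange factors turn on and GTPase-activating proteins turn off. Active Ras recruits RAF kinases, which phosphorylate MAP kinase kinases, which in turn phosphorylate MAP kinases. Parallel arms end in ERK, ERK5, JNK and p38, and ERK acts in part through the RSK kinases. Dual-specificity phosphatases and Sprouty proteins, several of them induced by ERK itself, act as brakes. In cortical neurons these routes carry growth factor, calcium and stress signals to synapses and to the nucleus, and the title of the series names signalling pathways as one of its subjects.

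No gene of the 32 passed the test in either direction (edgeR quasi-likelihood test, Benjamini-Hochberg adjusted p below 0.05), whereas 1.76% of the 17074 genes tested were called higher in FAD5x and 1.39% lower, or 3.15% in either direction. At an adjusted p below 0.10, 3 members were higher, Map2k7, Mapk3 and Rps6ka1, against 3.99% of all genes. At an unadjusted p under 0.05, 6 members were higher in FAD5x and 2 lower, or 18.8% and 6.25% of the 32, against 11.2% and 10.1% of all genes tested (8 in all, against 21.3%). limma-voom also called 0, whereas DESeq2 called 4 higher and 0 lower, against 3.74% and 3.40% of the genes it tested. These 4 were Map2k7, a kinase that activates JNK (DESeq2 adjusted p = 0.0267), Mapk3, which encodes an ERK (0.0344), Mapk12, a p38 (0.0497), and Rasgrf1, a calcium-responsive exchange factor (0.04996). In 7 members every FAD5x library lay above every Control library and in 4 every FAD5x library lay below, or 21.9% and 12.5% of the 32, against 14.1% and 13.2% of all genes tested (11 in all, against 27.4%). The median log2 fold change of the members was 0.04, and that of all tested genes 0.02, while the median size of the log2 fold change was 0.28 in the members and 0.26 in all tested genes. Levels below are in CPM, the usual scaling of a gene's count by the total of its library, with the normalisation factors applied. Log2 fold changes put FAD5x over Control, and ± marks their standard error (SE) unless SD is named, with 3 libraries per group.

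**Figure D1:**
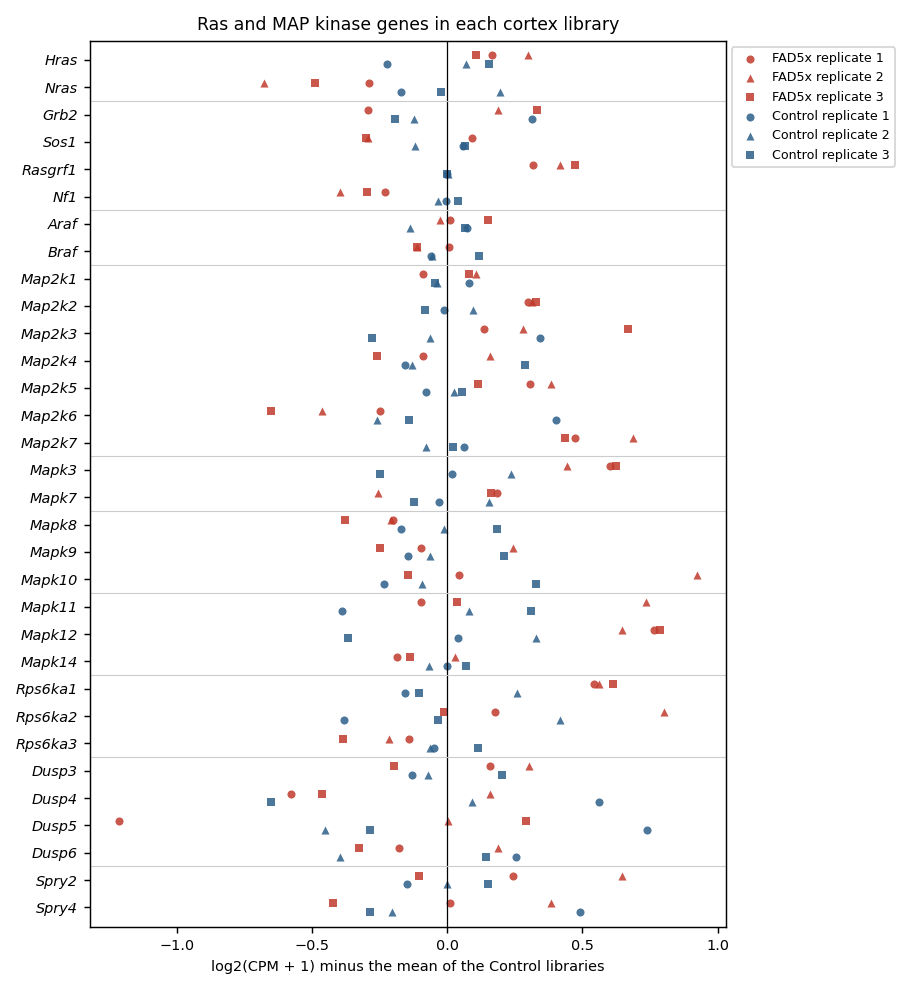
Level of each of the 32 genes in each library, as log2(CPM + 1) minus the mean of the Control libraries, with FAD5x in red above Control in blue and grey lines between roles. The FAD5x points of Map2k7, Mapk3, Mapk12, Rps6ka1 and Rasgrf1 lie to the right of all Control points, those of Nras and Nf1 to the left, and most other genes overlap.

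The 2 Ras genes on the list differed in the sign of their fold change. Hras (ENSMUSG00000025499) and Nras (ENSMUSG00000027852) encode closely related GTPases at the head of the cascade. Their promoter windows, from 250 bases before to 50 after the RefSeq start on build GRCm38.p6, are printed because the balance between these genes is one of the within-family comparisons described further below. The Hras window is chr7:141193955-141194254 on the minus strand and the Nras window chr3:103058035-103058334 on the plus strand, each read along its gene. Capitals mark the GC box GGGCGG on either strand, with 3 matches in each window, of which 2 overlap by a base in Nras.
Hras: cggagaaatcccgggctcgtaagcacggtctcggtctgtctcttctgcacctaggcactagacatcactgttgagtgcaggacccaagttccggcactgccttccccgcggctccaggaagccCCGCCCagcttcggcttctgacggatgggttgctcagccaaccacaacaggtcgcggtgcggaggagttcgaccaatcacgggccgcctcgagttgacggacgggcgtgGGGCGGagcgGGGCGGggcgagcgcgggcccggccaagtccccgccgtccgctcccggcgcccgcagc
Nras: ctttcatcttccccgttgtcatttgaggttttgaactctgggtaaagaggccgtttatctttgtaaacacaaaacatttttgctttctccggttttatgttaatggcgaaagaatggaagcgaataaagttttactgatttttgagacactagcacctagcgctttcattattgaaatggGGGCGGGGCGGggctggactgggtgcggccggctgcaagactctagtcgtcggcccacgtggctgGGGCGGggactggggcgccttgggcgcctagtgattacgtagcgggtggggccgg
The Hras window was 69.0% G and C and the Nras window 52.3%. A GC box was present in 22 of the 39 RefSeq promoter windows that 28 of the members have, or 56.4%, against 35.7% of all 32851 windows. The ETS motif CCGGAAG was found in 1 member window, that of Nf1, or 2.56%, against 8.86% of all windows. The cyclic AMP response element TGACGTCA was found in 2, of Braf and Mapk10 (5.13%, against 1.79%), and the AP-1 motif TGANTCA in 2, of Map2k6 and Map2k7 (5.13%, against 7.81%). Both strands were searched, these are letter matches only, and the windows are on an earlier build than the counts.

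Nras had 48.7, 37.0 and 42.3 CPM in FAD5x replicates 1, 2 and 3, against 53.0, 68.5 and 58.8 CPM in Control replicates 1, 2 and 3. Every FAD5x library was below every Control library, yet the log2 fold change of -0.49 ± 0.15 did not pass the test (adjusted p = 0.113, unadjusted 95% interval -0.83 to -0.15). Hras had 89.8, 98.6 and 86.3 CPM in FAD5x replicates 1, 2 and 3, against 68.3, 84.1 and 89.2 CPM in Control replicates 1, 2 and 3, and these ranges overlapped. Its log2 fold change was 0.19 ± 0.14 (adjusted p = 0.488, 95% interval -0.13 to 0.50).

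Among the regulators that set Ras activity, Rasgrf1, an exchange factor of neurons that responds to calcium, was expressed at 369.8, 397 and 412 CPM in FAD5x replicates 1, 2 and 3, against 297, 297 and 296 CPM in Control replicates 1, 2 and 3. The Control libraries lay almost on one another and all FAD5x libraries were above them, with a mean of 393 ± 21.5 CPM in FAD5x and 297 ± 0.192 CPM in Control (SD, n = 3 each). That Control SD is smaller than counting alone would give at this level, so it does not measure the spread between libraries. The log2 fold change of Rasgrf1, 0.41 ± 0.13, was not called (adjusted p = 0.126). Nf1 encodes neurofibromin, which switches Ras off, and it had 113, 100.5 and 108 CPM in FAD5x replicates 1, 2 and 3, against 132, 129 and 137 CPM in Control replicates 1, 2 and 3. The FAD5x libraries were below the Control libraries without overlap, with a log2 fold change of -0.31 ± 0.12 (adjusted p = 0.179). Grb2, the adaptor that brings an exchange factor to activated receptors, had 134, 188 and 207 CPM in FAD5x, against 205, 151 and 144 CPM in Control. Its libraries were interleaved, FAD5x replicate 1 being the lowest of all 6 and FAD5x replicate 3 the highest, with a log2 fold change of 0.08 ± 0.20 (adjusted p = 0.859). For Sos1, the exchange factor that Grb2 recruits, the groups overlapped and the log2 fold change was -0.16 ± 0.14 (adjusted p = 0.567).

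The RAF kinases had the smallest fold changes of any role. Braf, the RAF with the stronger activity towards MAP kinase kinases, had 129.6, 119.5 and 119 CPM in FAD5x, against 124, 124 and 140.0 CPM in Control, and Araf averaged 111 ± 7.22 CPM in FAD5x and 107 ± 8.79 CPM in Control (SD, n = 3 each). Their log2 fold changes were -0.07 ± 0.12 and 0.04 ± 0.12 (adjusted p = 0.770 and 0.878), and the 95% intervals ran over 0.785 to 1.15 and 0.847 to 1.25 on the linear fold scale.

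The 7 MAP kinase kinases relay the signal to the different MAP kinases. Map2k7 (ENSMUSG00000002948), which activates JNK, had the smallest p of the 32 genes, with 48.2, 56.2 and 47.1 CPM in FAD5x replicates 1, 2 and 3, against 36.1, 32.6 and 34.99 CPM in Control replicates 1, 2 and 3. The log2 fold change was 0.55 ± 0.12, a 1.46-fold difference with a 95% interval of 1.20 to 1.77, and the adjusted p of 0.0531 lay just outside the threshold. It was called by DESeq2 (adjusted p = 0.0267), with upper quartile scaling (0.0407) and with no filter on low counts (0.0348), of which the scaling and the unfiltered fit called 1.92% and 1.90% of all genes higher. Its adjusted p ran from 0.0267 to 0.265 over 16 alternatives. In the GENCODE annotation, 35.2% of its exon length is shared with Gm49320 on the same strand, a gene with 0 counts in all 6 libraries. How reads on shared exons were counted is not known here, so these 0 counts cannot show whether Map2k7 lost reads there. Groups overlapped for Map2k4, the other activator of JNK, at a log2 fold change of -0.07 ± 0.17 (adjusted p = 0.859).

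Map2k1 and Map2k2 encode the kinases that phosphorylate ERK. Map2k2 had 78.4, 79.2 and 80.1 CPM in FAD5x replicates 1, 2 and 3, against 63.0, 68.0 and 60.0 CPM in Control replicates 1, 2 and 3. The FAD5x libraries were within 2 CPM of each other and above Control, with a log2 fold change of 0.32 ± 0.11 (adjusted p = 0.153). Map2k1 was the more abundant, with 225, 257 and 253 CPM in FAD5x, against 253, 233 and 232 CPM in Control, and its log2 fold change was 0.03 ± 0.13 (adjusted p = 0.912, 95% interval -0.26 to 0.33). Map2k5, the activator of ERK5, had 27.8, 29.5 and 24.2 CPM in FAD5x, against 21.1, 22.8 and 23.3 CPM in Control, without overlap and with a log2 fold change of 0.28 ± 0.13 (adjusted p = 0.266). The 2 genes for kinases upstream of p38 had fold changes of opposite sign. Map2k3 had 12.1, 13.5 and 17.9 CPM in FAD5x, against 14.1, 10.4 and 8.83 CPM in Control, and Map2k6 had 6.68, 5.62 and 4.81 CPM in FAD5x, against 11.1, 6.63 and 7.27 CPM in Control. Groups of both overlapped, by a single pair of libraries in Map2k6, and their log2 fold changes were 0.38 ± 0.23 and -0.54 ± 0.26 (adjusted p = 0.383 and 0.270). Without Control replicate 1, the highest library of Map2k6, that of Map2k6 was -0.28.

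Mapk3 encodes an ERK, the kinase that carries the Ras signal to the nucleus and to RSK. It was expressed at 172, 154 and 174 CPM in FAD5x replicates 1, 2 and 3, against 114, 133 and 94.8 CPM in Control replicates 1, 2 and 3. All FAD5x libraries were above all Control libraries, and the log2 fold change was 0.55 ± 0.15, or 1.46-fold with a 95% interval of 1.15 to 1.86 (adjusted p = 0.0946). It was called by DESeq2 (adjusted p = 0.0344) and with no filter on low counts (0.0487). Mapk7, which encodes ERK5, averaged 18.9 ± 3.24 CPM in FAD5x and 18.4 ± 1.91 CPM in Control (SD, n = 3 each), with a log2 fold change of 0.04 ± 0.17 (adjusted p = 0.918).

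Of the JNK genes, Mapk8, the broadly expressed form, had 96.8, 96.3 and 85.3 CPM in FAD5x replicates 1, 2 and 3, against 98.7, 110.3 and 127 CPM in Control replicates 1, 2 and 3. Its groups did not overlap, FAD5x being the lower, with a log2 fold change of -0.27 ± 0.14 (adjusted p = 0.297). Mapk10, the JNK gene enriched in neurons, had 263, 485 and 230.5 CPM in FAD5x, against 217, 239 and 321 CPM in Control, with a log2 fold change of 0.33 ± 0.29 (adjusted p = 0.565). Its highest value was in FAD5x replicate 2, and without that library the log2 fold change was -0.061. Mapk9 averaged 222 ± 39.8 CPM in FAD5x and 226 ± 30.0 CPM in Control (SD, n = 3 each), with a log2 fold change of -0.03 ± 0.17 (adjusted p = 0.948).

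Of the p38 genes, Mapk12 had the largest fold change of the 32 genes, at a low level. It had 10.4, 9.50 and 10.6 CPM in FAD5x replicates 1, 2 and 3, against 5.89, 7.42 and 4.19 CPM in Control replicates 1, 2 and 3. No library of one group reached into the other, and the log2 fold change was 0.80 ± 0.24, or 1.74-fold with a 95% interval of 1.20 to 2.52 (adjusted p = 0.106). Mapk14, the main p38 form in most tissues, had 83.8, 97.4 and 86.7 CPM in FAD5x, against 95.4, 90.9 and 100.2 CPM in Control, and its groups overlapped with a log2 fold change of -0.10 ± 0.12 (adjusted p = 0.690). Mapk11 averaged 41.8 ± 14.1 CPM in FAD5x and 35.1 ± 8.47 CPM in Control (SD, n = 3 each), and its log2 fold change of 0.25 ± 0.26 (adjusted p = 0.632) was -0.049 without FAD5x replicate 2, its highest library.

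The RSK kinases, which ERK activates, again held fold changes of both signs. Rps6ka1 had 19.4, 19.6 and 20.4 CPM in FAD5x replicates 1, 2 and 3, against 11.6, 15.7 and 12.02 CPM in Control replicates 1, 2 and 3. Its FAD5x libraries lay close together and above Control, with a log2 fold change of 0.59 ± 0.16, or 1.51-fold (adjusted p = 0.0888, 95% interval 0.23 to 0.96). Rps6ka3 had 59.8, 56.7 and 50.3 CPM in FAD5x replicates 1, 2 and 3, against 63.7, 63.1 and 71.5 CPM in Control replicates 1, 2 and 3, with no overlap and a log2 fold change of -0.25 ± 0.12 (adjusted p = 0.281). Rps6ka2 had 85.7, 133 and 75.1 CPM in FAD5x, against 57.9, 101 and 73.8 CPM in Control, with overlap and a log2 fold change of 0.33 ± 0.26 (adjusted p = 0.521). Without FAD5x replicate 2, its highest library, that value was 0.057. Of the longest Rps6ka2 transcript, 57.4% is shared with Sod2 and a non-coding gene, and the handling of multi-mapping reads is not known. The 6 microglial markers summed to 594, 264 and 377 CPM in FAD5x replicates 1, 2 and 3, against 209, 322 and 221 CPM in Control replicates 1, 2 and 3, and 0 of 6 were called. The 6 oligodendrocyte markers summed to 7393, 3802 and 4971 CPM in FAD5x replicates 1, 2 and 3, against 2719, 3132 and 3978 CPM in Control replicates 1, 2 and 3, and 1 of 6, the myelin gene Mobp, rose. Mbp lay just outside the threshold (log2 fold change 1.14 ± 0.26, adjusted p = 0.0545). On both lists 6 of 6 markers were above 0 in log2 fold change, where 8801 of 17074 tested genes were. At an unadjusted p under 0.05, 4 microglial and 2 oligodendrocyte markers were higher and 0 lower, against 11.2% and 10.1% of all tested genes. In each of these sums FAD5x replicate 2 lay below 1 Control library and the other FAD5x libraries above all Control libraries. The part of these cell types in the values of the kinases was not tested.

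**Figure D2:**
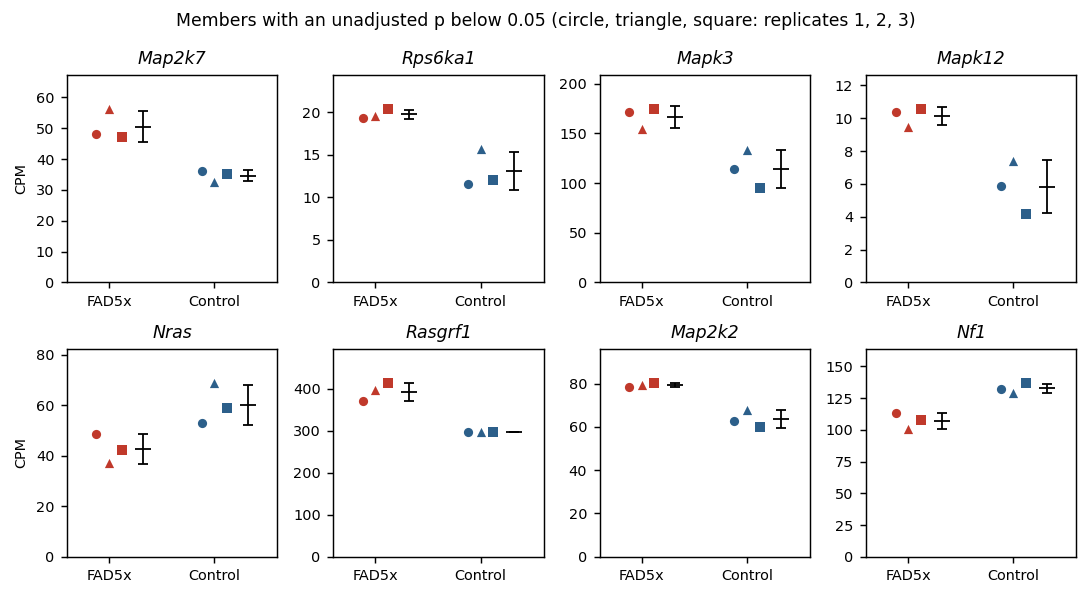
CPM of the 8 members with an unadjusted p under 0.05, with FAD5x in red left of Control in blue and the mean ± SD of 3 libraries beside each group. Map2k7, Rps6ka1, Mapk3, Mapk12, Rasgrf1 and Map2k2 were higher in all FAD5x libraries and Nras and Nf1 lower, while 0 of the 8 passed the adjusted threshold.

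For all 6 listed phosphatases and Sprouty inhibitors the groups overlapped. Spry2, an inhibitor induced by growth factors, had 40.6, 53.9 and 31.6 CPM in FAD5x, against 30.7, 34.0 and 37.96 CPM in Control, with a log2 fold change of 0.30 ± 0.20 (adjusted p = 0.434). Dusp3, a phosphatase of ERK and JNK, had 155, 171 and 121 CPM in FAD5x, against 127, 132 and 159.7 CPM in Control, with a log2 fold change of 0.10 ± 0.17 (adjusted p = 0.787). In each, the ranges of the groups overlapped, and without FAD5x replicate 2 the log2 fold change of Spry2 was 0.085. Dusp6, the cytoplasmic phosphatase of ERK and a common gauge of ERK activity, averaged 52.4 ± 10.02 CPM in FAD5x and 56.8 ± 12.9 CPM in Control (SD, n = 3 each), with a log2 fold change of -0.12 ± 0.20 (adjusted p = 0.784, 95% interval -0.58 to 0.34). Dusp4 and Dusp5, nuclear phosphatases that ERK induces, were low and variable. Dusp4 averaged 11.5 ± 3.63 CPM in FAD5x and 14.8 ± 6.27 CPM in Control, and Dusp5 averaged 17.9 ± 8.71 CPM in FAD5x and 21.9 ± 11.02 CPM in Control (SD, n = 3 each). Their log2 fold changes were -0.37 ± 0.34 and -0.30 ± 0.46, and that of Spry4 was -0.02 ± 0.29 (adjusted p = 0.589, 0.762 and 0.981). Dusp4, Dusp5, Dusp6 and Spry4 all had their highest value in Control replicate 1, at 21.03, 34.6, 66.6 and 20.5 CPM. Without that library the log2 fold changes of Dusp4, Dusp5, Dusp6 and Spry4 were -0.025, 0.20, 0.014 and 0.29. An antisense gene overlaps 22.1% of the exon length of Dusp5 and another 12.9% of that of Dusp3, and as no source used here states strandedness, reads of each pair cannot be told apart.

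**Figure D3:**
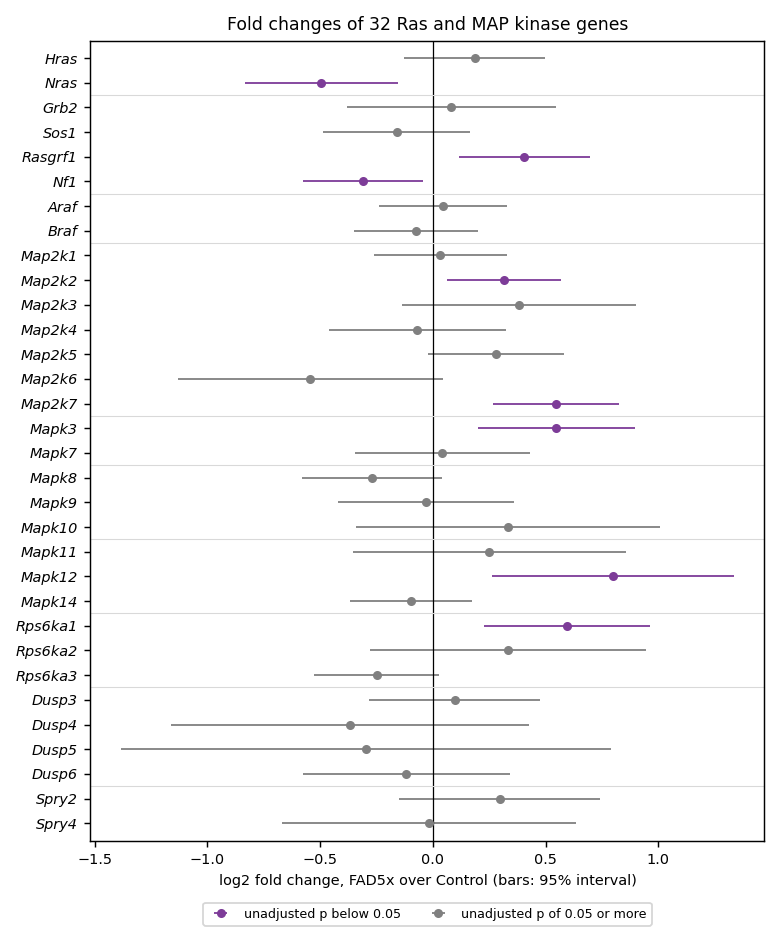
Log2 fold change of each gene with its 95% interval, FAD5x over Control, with an unadjusted p under 0.05 in purple. The largest is that of Mapk12 at 0.80, the lowest that of Map2k6 at -0.54, and 27 of the 32 lie within 0.5 of 0.

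Per length of exon, the same 3 genes led the list in both groups. Mapk3 stood at 73.9 ± 4.89 CPM per kb in FAD5x and 50.5 ± 8.47 CPM per kb in Control, Map2k1 at 72.2 ± 5.25 CPM per kb in FAD5x and 70.6 ± 3.54 CPM per kb in Control, and Grb2 at 60.4 ± 13.0 CPM per kb in FAD5x and 57.1 ± 11.4 CPM per kb in Control (SD, n = 3 each). At the other end were Map2k6 at 1.66 ± 0.272 CPM per kb in FAD5x and 2.42 ± 0.696 CPM per kb in Control, and Mapk12 at 2.67 ± 0.149 CPM per kb in FAD5x and 1.53 ± 0.424 CPM per kb in Control. The exon lengths come from an annotation of an earlier build, and these are levels, not differences.

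Expression within a family was also compared as each member's share of the summed CPM per kb of its role, which does not depend on how libraries are scaled. Only listed members enter each sum, so the p38 gene Mapk13, for one, is left out. This comparison was chosen after the values were seen, and with 3 libraries a group the exact two-sided permutation test cannot go below p = 0.1, which adjusted over 28 shares was 0.255. That floor was reached by 11 of the 28 shares, and shares within a role are tied to each other since they sum to the whole. An exact p of 0.1 here says only that the groups did not overlap, and it gives no further evidence for any share. No such shares were computed for other genes. Besides the 4 described next, the 11 were those of Mapk3, Mapk10, Mapk12, Rasgrf1 and Rps6ka1, which were larger in FAD5x, and of Map2k6 and Mapk8, which were smaller. Of the summed level of the Ras pair, Hras made up 72.5, 79.2 and 74.4% in FAD5x replicates 1, 2 and 3, against 64.8, 63.7 and 68.4% in Control replicates 1, 2 and 3. It held a larger share in every FAD5x library, on average 75.4 ± 3.46% in FAD5x and 65.6 ± 2.48% in Control (SD, n = 3 each; exact p = 0.1). Of the summed level of the listed RSK members, Rps6ka3 made up 35.4, 27.6 and 32.9% in FAD5x replicates 1, 2 and 3, against 47.3, 35.4 and 45.7% in Control replicates 1, 2 and 3 (exact p = 0.1). Its share was smaller in every FAD5x library, though FAD5x replicate 1 and Control replicate 2 were nearly equal. Rps6ka2, whose longest transcript is shared in part with other genes, enters this sum. Of the level of the MAP kinase kinases, Map2k7 made up 9.10, 9.35 and 8.57% in FAD5x replicates 1, 2 and 3, against 6.76, 6.45 and 6.48% in Control replicates 1, 2 and 3 (exact p = 0.1), a larger share in FAD5x, while Map2k4 averaged 22.1 ± 2.26% in FAD5x and 24.7 ± 3.92% in Control (exact p = 0.5). Of the summed level of the listed p38 members, Mapk14 made up 58.0, 49.6 and 56.9% in FAD5x replicates 1, 2 and 3, against 67.3, 58.8 and 58.9% in Control replicates 1, 2 and 3 (exact p = 0.1). That share was smaller in every FAD5x library, by less than 1 percentage point between the nearest pair. The shares of Araf and Braf overlapped between the groups (exact p = 0.3).

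**Figure D4:**
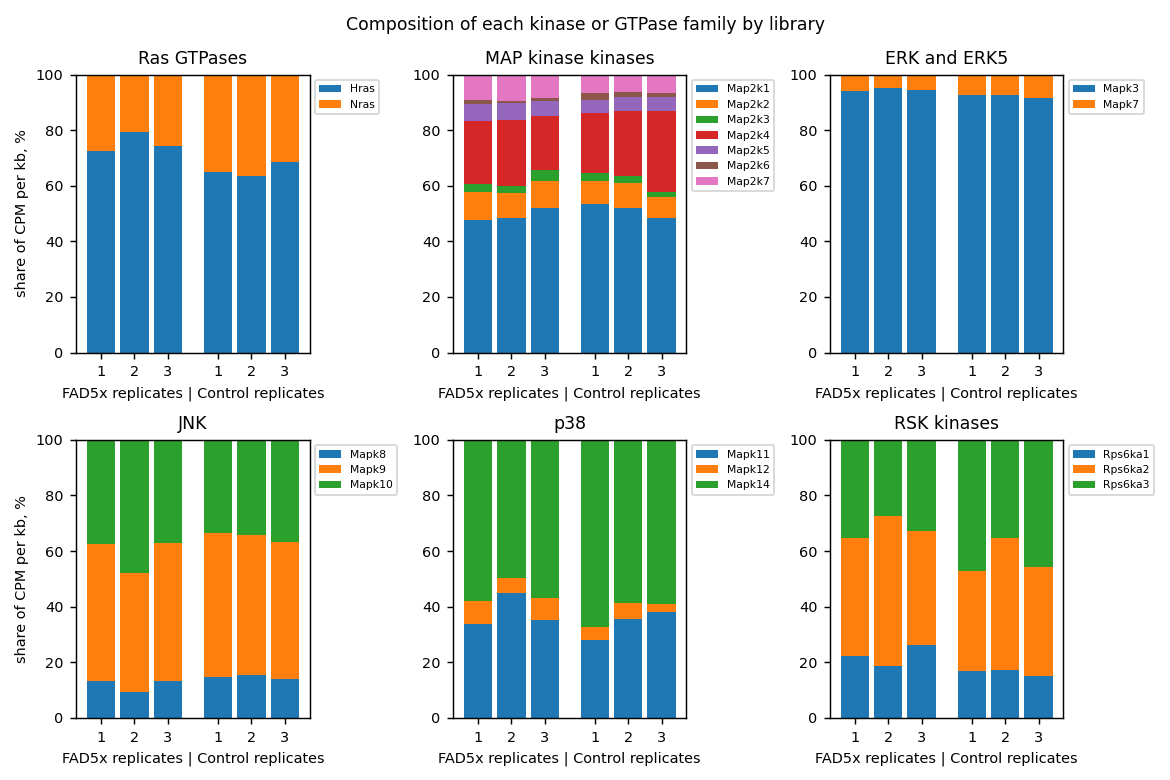
Share of each member in the summed CPM per kb of the listed members of its family, in percent, for each library, FAD5x bars left of Control bars. Hras took 72.5% to 79.2% of the Ras pair in FAD5x and 63.7% to 68.4% in Control, and Mapk3 took over 90% of the ERK and ERK5 pair in all 6 libraries.

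Libraries differed among themselves. The median deviation of the 32 genes from their Control mean, on the log2(CPM + 1) scale, was 0.01, 0.22 and -0.06 in FAD5x replicates 1, 2 and 3, against -0.01, -0.05 and 0.03 in Control replicates 1, 2 and 3. FAD5x replicate 2 stood above the rest and held the highest value of 10 of the 32 genes, among them Mapk10, Mapk11, Rps6ka2 and Spry2. The 7 neuronal markers summed to 6109, 8429 and 6841 CPM in FAD5x replicates 1, 2 and 3, against 5239, 4995 and 6138 CPM in Control replicates 1, 2 and 3, and 1 of 7 rose, Thy1, whose promoter drives the transgenes. Without Thy1 the sums were 4633, 7727 and 5092 CPM in FAD5x replicates 1, 2 and 3, against 4893, 4597 and 5607 CPM in Control replicates 1, 2 and 3. FAD5x replicate 2 was the highest library in both sums, and the part of this in the members' values was not tested. The 6 striatal markers summed to 1037, 203 and 92.6 CPM in FAD5x replicates 1, 2 and 3, against 96.8, 101 and 161 CPM in Control replicates 1, 2 and 3. This sum was 5 or more times as high in FAD5x replicate 1 as in any other library. Without that library the log2 fold changes of Map2k7, Mapk3, Mapk12 and Rps6ka1 were 0.58, 0.53, 0.78 and 0.61, and the part of striatal transcripts in the members' values was not tested. The 6 mural and meningeal markers summed to 148, 110.2 and 135 CPM in FAD5x replicates 1, 2 and 3, against 256, 448 and 223 CPM in Control replicates 1, 2 and 3, lower in every FAD5x library with 0 of 6 called, and their part in the members' values was not tested. The 6 astrocyte markers summed to 3430 to 6047 CPM in FAD5x and 3923 to 5684 CPM in Control, with 0 of 6 called and 5 of 6 below 0 in log2 fold change. The sixth, Gfap, a filament protein of reactive astrocytes, had 1508, 129 and 914 CPM in FAD5x, against 193, 169 and 119 CPM in Control (log2 fold change 2.41 ± 0.81, adjusted p = 0.168). The 5 markers of oligodendrocyte precursors summed to 157 to 260.1 CPM in FAD5x and 228 to 282 CPM in Control, and 1 of 5 fell, Gpr17, a receptor of maturing precursors, with 38.5, 26.6 and 19.4 CPM in FAD5x, against 76.0, 102 and 99.8 CPM in Control (log2 fold change -1.71 ± 0.25, adjusted p = 0.0147). The 5 endothelial markers summed to 121, 159 and 103 CPM in FAD5x replicates 1, 2 and 3. In Control replicates 1, 2 and 3 they summed to 164, 161 and 122 CPM, with 0 of 5 called. Markers of choroid plexus and blood summed to 183, 193 and 188 CPM in FAD5x replicates 1, 2 and 3. In Control replicates 1, 2 and 3 they summed to 297, 254 and 42.3 CPM, with 0 of 5 called. The part of these cells in the members' values was not tested either, and every marker of these lists was above 0 in every library. Control replicate 1 had 3 Xist counts and 3124 counts over 4 Y-linked genes, while the other 5 libraries had 10346 to 22631 and at most 9, and Araf and Rps6ka3 are X-linked. Without that library their log2 fold changes were 0.082 and -0.27. By the Xist and Y-linked counts, Control replicate 1 came from a male and the other 5 libraries from females, so sex was not balanced between the groups. The part of sex in the members' values was not tested. Related names were given to the libraries of FAD5x replicates 1 and 2. Chi-square over its degrees of freedom was 63.8 between them, and 41.9 to 60.0 in the remaining FAD5x pairs. In the Control pairs it was 19.8 to 31.2, so every pair differed by more than sampling noise. Preparations from 1 animal may also differ by that much, so this cannot tell whether FAD5x replicates 1 and 2 share an animal. Total counts were 17363946 to 24137936 per library.

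Beyond the 32 genes, 7 lists of other pathway genes held 109 tested genes, of which 0 rose and 1 fell, or 0.917% called, against 3.15% of all genes tested. Etv1 (ENSMUSG00000004151), an ETS transcription factor known as a target of ERK signalling, was the gene that fell. It had 47.4, 52.8 and 50.1 CPM in FAD5x replicates 1, 2 and 3, against 113, 77.5 and 77.6 CPM in Control replicates 1, 2 and 3. Control replicate 1 was the highest library, and the log2 fold change was -0.84 ± 0.17, or 1.79-fold lower in FAD5x (adjusted p = 0.0373). Its call ended without FAD5x replicate 1 or 3 (adjusted p = 0.101 and 0.0622), without Control replicates 1, 2 or 3 (0.110, 0.0989 and 0.0745) and with library totals only (0.0511). Of 16 genes listed as targets of ERK signalling it was the single call, with a median of -0.19. Above 0 were 5 of the 16, against 8801 of all 17074 tested genes. At an unadjusted p under 0.05, 3 of the 16 were higher and 4 lower, where 11.2% and 10.1% of all tested genes were.

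The other lists held 0 calls by edgeR, and each is given by its gene with the smallest p. Their counts at an unadjusted p under 0.05 stand against the same 11.2% higher and 10.1% lower of all tested genes. Counts above 0 stand against 8801 of 17074. Of 16 further Ras family GTPases and exchange factors, 2 were higher and 3 lower at an unadjusted p under 0.05, the leading one being Rras2, a Ras-related GTPase (log2 fold change -0.62 ± 0.17, adjusted p = 0.0958). Of 14 GTPase-activating proteins and Spred inhibitors 0 were higher and 1 lower, Rasal2, which encodes a Ras GTPase-activating protein (-0.40 ± 0.14, 0.154), with 4 of 14 above 0 and a median of -0.21. Of 18 adaptors and scaffolds 3 were higher and 1 lower, led by Frs3, an adaptor of fibroblast growth factor receptors (0.63 ± 0.15, 0.0671), 16.3% of whose exon length lies under an antisense gene. Of 17 tested MAP kinase kinase kinases 0 were higher and 1 lower, Map3k7 (-0.31 ± 0.11, 0.161), with 3 of 17 above 0 and a median of -0.15. Of 15 further MAP kinases, MAPK-activated kinases and related kinases 0 reached that level, and Mapk13, a p38 gene at most 1.15 CPM in any library, was nearest (1.34 ± 0.65, 0.275). Of 15 further tested phosphatases 1 was higher and 1 lower, led by Dusp8, a phosphatase of JNK and p38 (-0.44 ± 0.12, 0.0955). By DESeq2 the calls on these 6 lists were 0 and 0 higher and lower for GTPases and exchange factors and for GTPase-activating proteins, 1 and 0 for adaptors, 0 and 0 for both kinase lists, and 1 and 1 for phosphatases. By limma-voom they were 0 throughout.

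**Figure D5:**
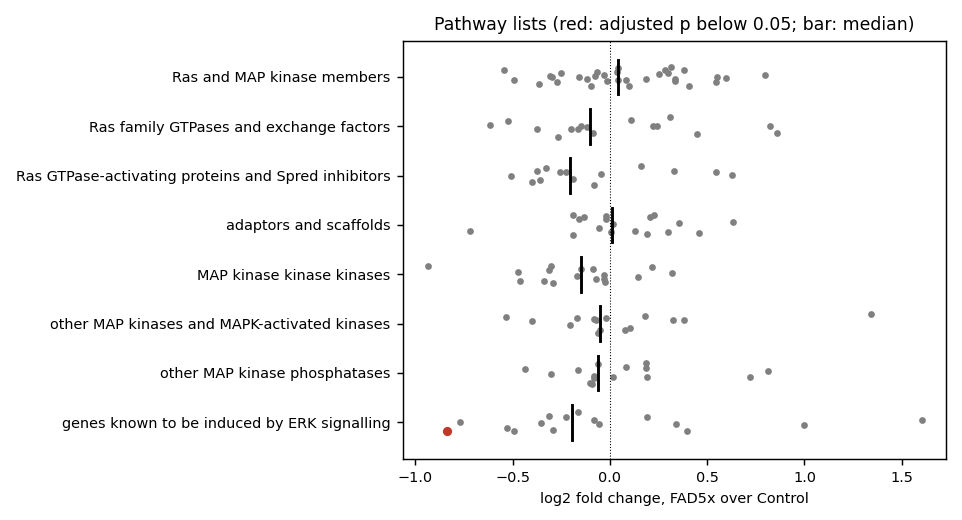
Log2 fold change, FAD5x over Control, of the 32 members and of 7 lists of other pathway genes, each gene a point, with the median as a bar and called genes in red. The 1 red point is Etv1 at -0.84, and the medians run from -0.21 to 0.04.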

How the data were processed

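RNA sequencing of cortex gave 1 library for each of 3 FAD5x and 3 Control samples. Per the submitters' processing notes, build GRCm39 was used with featureCounts, STAR 2.7.11b, cutadapt, limma and edgeR 3.38.4. Library preparation, strandedness and the handling of multi-mapping reads are not given in the sources used here. The authors deposited raw counts per gene for 47729 identifiers. A line with a cell that was not a number was left out. Symbols and exon lengths came from GENCODE M21, on an earlier build, which matched 47309 of 47728 identifiers. Libraries were matched by the column names in the labels.

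The whole table was fitted with edgeR 4.0.16 in R 4.3.3 (quasi-likelihood F-test, robust prior, filterByExpr, trimmed mean of M values, two-sided). A gene was called at an adjusted p below 0.05 (Benjamini-Hochberg, over 17074 genes). The standard error is the size of the unshrunken log2 fold change over the root of F. The printed log2 fold changes, on which the intervals are centred, are those that edgeR shrinks slightly towards 0. Alternatives were limma-voom (limma 3.58.1), DESeq2 1.42.0, other scalings, no filter, a non-robust prior, a looser threshold, a replicate block, related libraries summed and each library left out. The steps were tested on simulated counts. Transcripts of other genes were sought that share 50% of a member's longest transcript at 95% identity, which was found for Rps6ka2 only (57.4% of its longest transcript, shared with Sod2 and a non-coding gene). Some genes of these cascades, and 1 on the other lists, are not reported here. The members and lists were chosen with earlier results of these data known. By the rule for named genes, each member is given, with values in all libraries for the 14 smallest p and the highest level of each role, then called genes of the other lists, or the 1 with the smallest p.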

Additional observations from a re-analysis of the deposited data

How the results depend on the processing

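The number of members called higher was 4 by DESeq2, 1 with upper quartile scaling, 2 with no filter on low counts and 3 at an adjusted p below 0.10, against 3.74%, 1.92%, 1.90% and 3.99% of all genes in those fits. It was 0 with every single library left out, and the number called lower was 0 in every alternative. Of all tested genes, 300 were called higher and 237 lower. These were 737 and 669 by DESeq2, 574 and 489 with no filter, 682 and 569 at an adjusted p below 0.10, and 39 to 604 and 42 to 385 with single libraries left out. Without FAD5x replicate 1 and also without Control replicate 1, which was added after seeing the data, 15 and 19 genes and 0 members were called. Same-numbered libraries did not deviate together, with correlations of -0.05, -0.10 and -0.38, so no pairing by replicate number was seen. By the names of the deposited columns, FAD5x replicates 1 and 2 would go with Control replicate 1, and FAD5x replicate 3 with Control replicate 2. The correlations of those libraries were -0.05, -0.27 and 0.03, and no fit with such a pairing was run. With a replicate block 0 members were called, with 36 genes higher and 36 lower, and Etv1 lost its call (adjusted p = 0.135).

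The list counts moved as follows. Exchange factors and GTPases had 0 to 1 called higher with libraries left out, 1 with FAD5x replicates 1 and 2 summed, and 1 lower at 0.10. GTPase-activating proteins had 0 to 1 higher and 0 to 1 lower with libraries left out. Adaptors had 1 higher by DESeq2 and at 0.10, and other MAP kinases 0 to 1 lower with libraries left out. Phosphatases had 1 higher and 1 lower by DESeq2, 1 lower at 0.10, and 0 to 1 higher with libraries left out. Listed ERK targets had 2 higher by DESeq2, at 0.10 and with FAD5x replicates summed, 1 with upper quartile scaling or no filter, and 0 to 1 with libraries left out, and 0 lower with library totals only, the block or both libraries out, and 0 to 1 with single libraries out.

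No member's fold change reversed under another test, scaling, filter or prior, and the reversals came with libraries left out, in members that no fit called. The ranges over single libraries left out were -0.048 to 0.26 for Grb2, -0.025 to 0.088 for Araf, -0.18 to 0.092 for Map2k4, -0.039 to 0.19 for Mapk7, -0.17 to 0.086 for Mapk9, -0.061 to 0.53 for Mapk10, -0.049 to 0.42 for Mapk11, -0.0087 to 0.23 for Dusp3, -0.62 to 0.20 for Dusp5, -0.29 to 0.014 for Dusp6 and -0.24 to 0.29 for Spry4. Without FAD5x replicate 1 and Control replicate 1 the values were -0.049 for Mapk7, 0.13 for Dusp4, 0.55 for Dusp5, 0.062 for Dusp6 and 0.31 for Spry4. The cause of these shifts was not tested, and among them genes at few CPM, such as Dusp4, Dusp5 and Spry4, had wide intervals.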
